A study of Arabidopsis thaliana with 6 samples.

Results

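WRKY genes encode a large family of plant transcription factors, and 67 of them were examined for chromatin contacts of the noncoding RNA HID1 in Arabidopsis thaliana seeds. They are the protein-coding genes whose symbol is WRKY followed directly by a number, 67 of 27444 protein-coding genes on the nuclear chromosomes listed by RefSeq for assembly TAIR10.1. A further 5 genes carry a WRKY number among their synonyms only, namely ABO3 (WRKY63), ZAP1 (WRKY1), TTG2 (WRKY44), TTR1 (WRKY16) and RRS1 (WRKY52), and they were kept apart. The libraries came from chromatin isolation by RNA purification (ChIRP), in which biotinylated antisense probes against HID1 pull down the DNA that the RNA is cross-linked to. All samples were Col-0 seeds, the common wild-type accession, given 5 min of red light to activate phytochrome B and then kept in darkness for 48 h. The study has 6 samples in 3 groups of 2, which are probe, mock with unlabelled probes, and input. Peak lists of the 2 probe samples were analysed, and the mock and input samples were not analysed here. Replicate 1 was fixed with formaldehyde and replicate 2 with glutaraldehyde, so each cross-linker has 1 library. No test across samples is therefore possible, and cross-linker and library cannot be told apart.

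WRKY proteins bind DNA through the WRKY domain, named after its conserved amino acids, which is followed by a zinc finger. They recognise the W box, a short motif in the promoters of many stress and hormone response genes. The family is best known for plant defence and leaf senescence. Several members act in seeds and in responses to abscisic acid (ABA), the hormone that holds germination back. The family is divided into group I, with a pair of WRKY domains, groups IIa to IIe, and group III, with a different zinc finger.

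The formaldehyde list held 4557 peaks and the glutaraldehyde list 6306. The depth of sequencing is unknown from the lists. Each peak carries a score, the peak caller's own value as the authors deposited it, which starts at about 50 in both lists and ranks peaks within a list. At AT2G35747, taken as the HID1 gene from prior knowledge since the gene table does not name it so, the scores were 348 with formaldehyde and 2150 with glutaraldehyde. This locus ranked 23 of 4557 with formaldehyde and 1 of 6306 with glutaraldehyde. All WRKY peaks scored below the locus in their own list, with a highest of 123 with formaldehyde and 180 with glutaraldehyde. A gene was counted as having a peak if a peak overlapped its body, or the 1 kb on either side, by at least 1 bp.

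A peak was found at 31 of the 67 WRKY genes in at least 1 library, 46.3% against 38% of all protein-coding genes. The other 36 had none. Formaldehyde peaks lay at 10 WRKY genes and glutaraldehyde peaks at 24. Both libraries marked WRKY14, WRKY17 and WRKY47, and at WRKY14 and WRKY17 the peaks of the libraries overlapped.

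The formaldehyde share was close to the background, while the glutaraldehyde share lay above it. With formaldehyde, 14.9% of WRKY genes had a peak (exact Clopper-Pearson 95% interval 7.40 to 25.7%) against 16.9% of all protein-coding genes. Protein-coding genes of similar length, taken as the 100 nearest in length to each member, gave 16.6%, or 11.1 genes out of 67. With glutaraldehyde, 35.8% of WRKY genes had a peak (95% interval 24.5 to 48.5%) against 25.9% of all protein-coding genes. Genes of similar length gave 25.01%, or 16.8 genes out of 67, so the WRKY share was 1.43 times theirs. The intervals cover counting error only, and no test was made of these differences or of the difference between the libraries. The interval of the glutaraldehyde share includes the share of the length-similar genes.

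**Figure D1:**
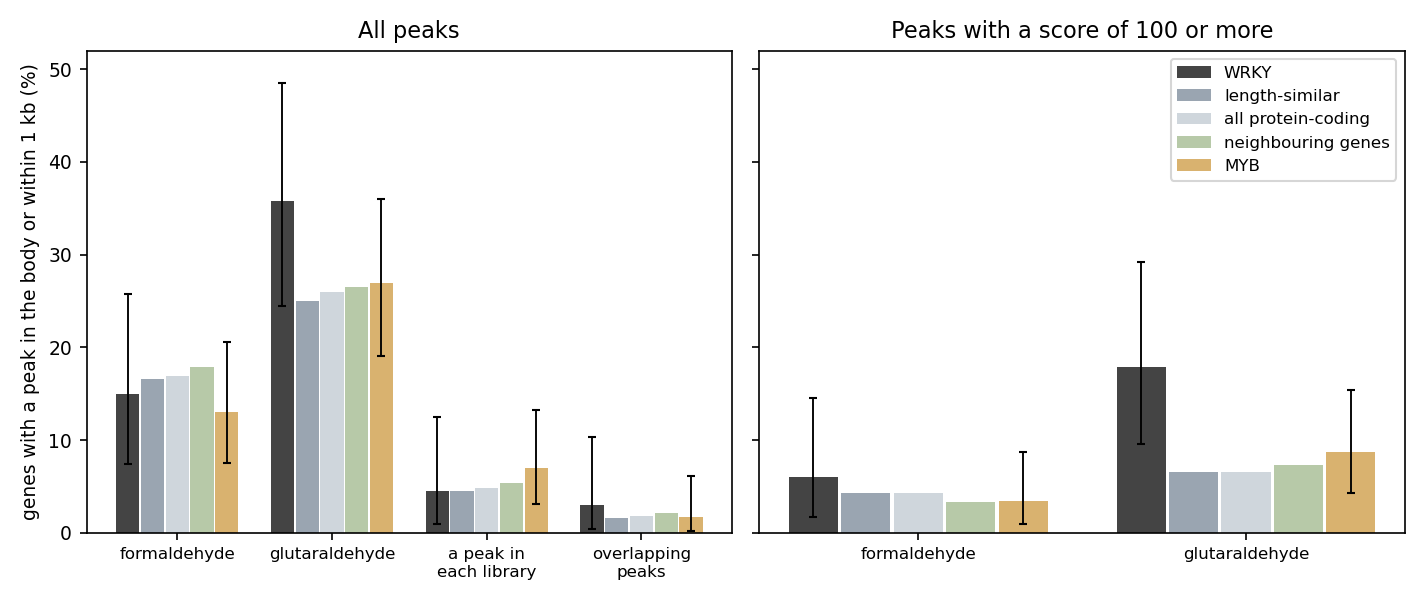
Bars give the percentage of genes with a peak in the body or within 1 kb, for all peaks (left) and for peaks with a score of 100 or more (right), in the WRKY genes, in genes of similar length, in all protein-coding genes, in neighbouring genes and in MYB genes. Error bars are exact 95% binomial intervals for the WRKY and MYB genes. The WRKY bar stands out in the glutaraldehyde library, at 35.8% for all peaks and 17.9% for scores of 100 or more.

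MYB genes, another large family of plant transcription factors, gave a glutaraldehyde share nearer to the background. Of 115 genes whose symbol is MYB followed directly by a number, 31 had a glutaraldehyde peak (26.96%) and 15 a formaldehyde peak (13.04%). The 5 nearest protein-coding genes on each side of every WRKY gene, without those whose 1 kb windows overlap the member's window, gave 26.6% with glutaraldehyde and 17.9% with formaldehyde. The WRKY share thus lay above that of the surrounding genes as well as that of genes of like length in the glutaraldehyde library. The difference between the WRKY and MYB shares was not tested.

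Of the 26 glutaraldehyde peaks at WRKY genes, 18 touched the gene body by at least 1 bp, and 12 of these crossed its edge. A score of 100 or more was reached by 13 of the 26. A glutaraldehyde peak touched the body of 18 WRKY genes, 26.9% against 16.7% of all protein-coding genes and 16.1% of genes of similar length. A formaldehyde peak lay in the body of 5 WRKY genes, 7.46% against 11.4% of all protein-coding genes and 11.3% of genes of similar length. Measured by bases, glutaraldehyde peaks covered 7.90% of the WRKY gene bodies and 4.40% of the bodies of length-similar genes. Formaldehyde peaks covered 2.77% and 4.01%. In the 1 kb flanks, glutaraldehyde peaks covered 6.02% at WRKY genes and 3.87% at length-similar genes, and formaldehyde peaks 1.42% and 2.44%. In these body and flank measures the WRKY genes thus lay above the length-similar genes with glutaraldehyde and below them with formaldehyde. The formaldehyde body share rests on 5 genes, and its exact 95% interval, 2.47 to 16.6%, includes 11.3%. The glutaraldehyde interval, 16.8 to 39.1%, does not include 16.1%. These intervals cover counting error only, and the libraries were not tested against each other. With formaldehyde, peaks scoring 100 or more in the body or within 1 kb went the other way, 5.97% against 4.28%.

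Counting peaks with a score of 100 or more, 12 WRKY genes had a glutaraldehyde peak (17.9%, 95% interval 9.61 to 29.2%) against 6.60% of all protein-coding genes. Genes of similar length gave 6.52%, so that 4.37 of 67 would be reached at their share, and MYB genes 8.70%. The interval does not include 6.52%, but it takes the genes as independent and is not a test. This score limit is 1 of several that were tried, and the members were chosen with earlier results of these data known. With formaldehyde 4 WRKY genes passed this score (5.97%, 95% interval 1.65 to 14.6%) against 4.31% of all protein-coding genes. The formaldehyde share of length-similar genes was 4.28%. The glutaraldehyde share changed steeply with the score, since most of the 12 scored between 100 and 125. At a score of 125 or more 4 WRKY genes remained in the glutaraldehyde library, 5.97% against 3.67% of length-similar genes. No WRKY gene remained in the formaldehyde library, against 2.34% of length-similar genes. At 150 or more there were 2 in the glutaraldehyde library, 2.99% against 1.97%.

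**Figure D2:**
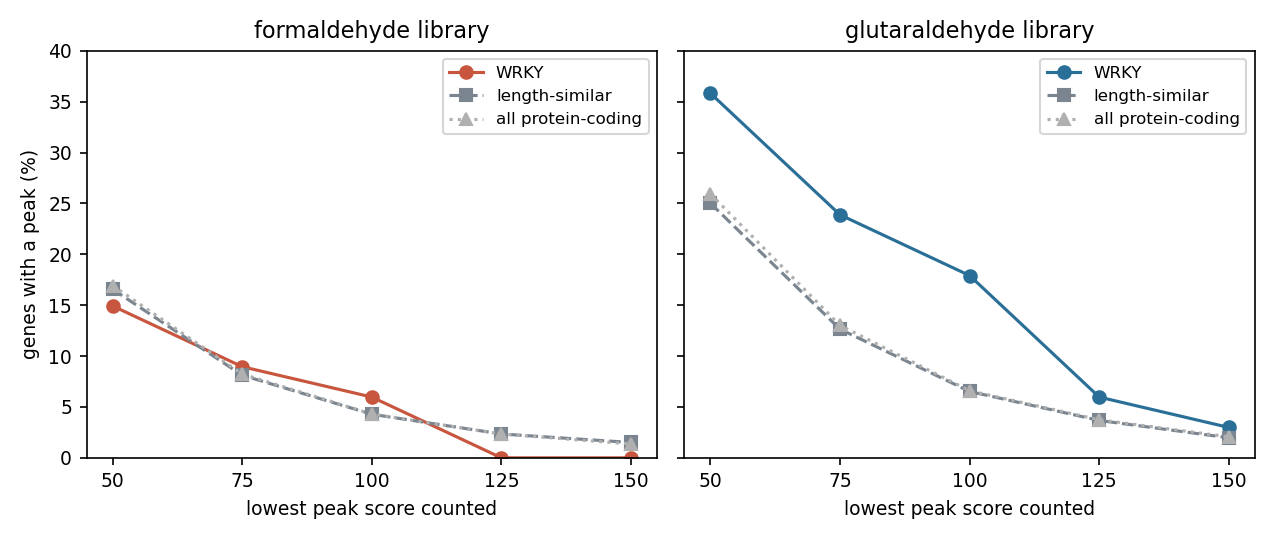
Lines give the percentage of genes with a peak in the body or within 1 kb (vertical axis) when only peaks at or above a given score are counted (horizontal axis), for the formaldehyde library (left) and the glutaraldehyde library (right). With formaldehyde the WRKY line crosses the background. It lies below length-similar genes at a score of 50 (14.9% against 16.6%) and above them at 100 (5.97% against 4.28%). From 125 it is at 0%, against 2.34% at 125. With glutaraldehyde the WRKY line lies above the background, with the gap widest at a score of 50 to 100 and small from 125.

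Over peaks rather than genes, the 26 glutaraldehyde peaks at WRKY genes had a median score of 101 (range 50.7 to 180) against 72.8 for the peaks at genes of similar length. Of the 26, 13 scored 100 or more (50%), against 23.2% of the peaks at genes of similar length and 30.3% of the 33 peaks at MYB genes. They were also wider, with a median of 804.5 bp against 648 bp. Wider peaks meet a gene window more easily. Counting a glutaraldehyde peak only if its midpoint lay in the window gave 24 of 67 WRKY genes (35.8%). Genes of similar length gave 21.7% by midpoint. Beyond this count, the part of width was not tested. The 11 formaldehyde peaks at WRKY genes had a median score of 92.6 (range 51.99 to 123) and a median width of 868 bp, against 73.4 and 853 bp at genes of similar length. Of these 11, 4 scored 100 or more (36.4%), against 24.1% of the formaldehyde peaks at genes of similar length.

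**Figure D3:**
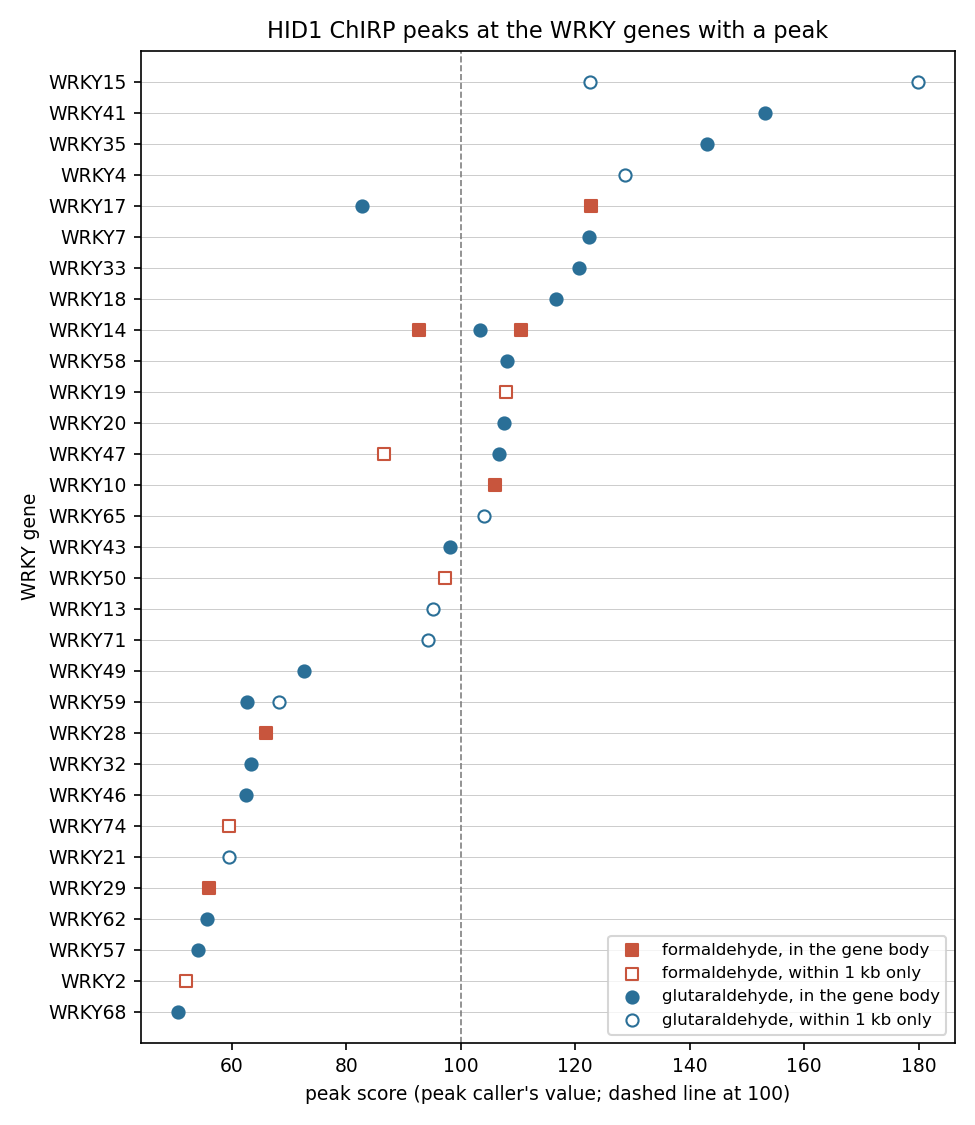
Each point is a peak at a WRKY gene, with its score on the horizontal axis and 1 row for each of the 31 genes with a peak. Squares are formaldehyde and circles glutaraldehyde peaks, and filled symbols touch the gene body. Scores run from 50.7 at WRKY68 to 180 at WRKY15, and WRKY14, WRKY17 and WRKY47 carry both colours.

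Of the 3 genes marked in both libraries, WRKY14 had the closest agreement in position between the libraries. This group IIe gene of 3080 bp lies on chromosome 1 from 10868218 to 10871297 (TAIR10). A formaldehyde peak from 10870239 to 10871106 scored 110.5, rank 985 of 4557, and lay wholly within a glutaraldehyde peak from 10869955 to 10871298 that scored 103, rank 1320 of 6306. The shared stretch was 868 bp, and the midpoints of the peaks were 46 bp apart. A second formaldehyde peak in the same gene body, spanning 10868598 to 10869221 and scoring 92.6, met no glutaraldehyde peak. WRKY14 was the member whose overlapping peaks both scored 100 or more. Neither peak touched another gene of the table.

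WRKY17, which acts with its close relative WRKY11 to restrain basal defence against bacteria, had overlapping peaks at the higher-coordinate edge of the gene. The gene spans 10437353 to 10439469 on chromosome 2. The formaldehyde peak from 10438926 to 10439887 scored 123, rank 757, and the glutaraldehyde peak, spanning 10438160 to 10439521, scored 82.8, rank 2331. They shared 596 bp, 61.9% of the formaldehyde peak and 43.8% of the glutaraldehyde peak, and their midpoints were 566 bp apart. WRKY11 had no peak in either library.

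At WRKY47, on chromosome 4 from 744804 to 748554, the peaks of the libraries lay apart. The glutaraldehyde peak (746327 to 746957, score 107) was inside the gene body. The formaldehyde peak (749520 to 750458, score 86.5) began 965 bp beyond the gene, in the body of the neighbouring gene AT4G01730. WRKY47 would thus not count for formaldehyde with a narrower flank.

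Peaks in both libraries at 3 of 67 genes (4.48%, 95% interval 0.933 to 12.5%) stood beside 4.84% of all protein-coding genes and 4.51% of genes of similar length. The share of length-similar genes would give 3.02 of 67. Overlapping peaks at 2 genes (2.99%, 95% interval 0.364 to 10.4%) stood beside 1.77% of all protein-coding genes and 1.63% of genes of similar length, at whose share 1.09 genes would be reached. In the gene body, 2 genes had a peak in each library, against 2.41% of all protein-coding genes and 2.33% of genes of similar length. Overlapping peaks also lay in the body of 2 genes, 2.99% against 1.10% and 1.13%, where 0.760 genes would be reached. The share with a peak in each library within 1 kb was thus near the background. The shares with overlapping peaks were 1.83 and 2.63 times those of length-similar genes, but they rest on WRKY14 and WRKY17 alone and their intervals include the background.

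**Figure D4:**
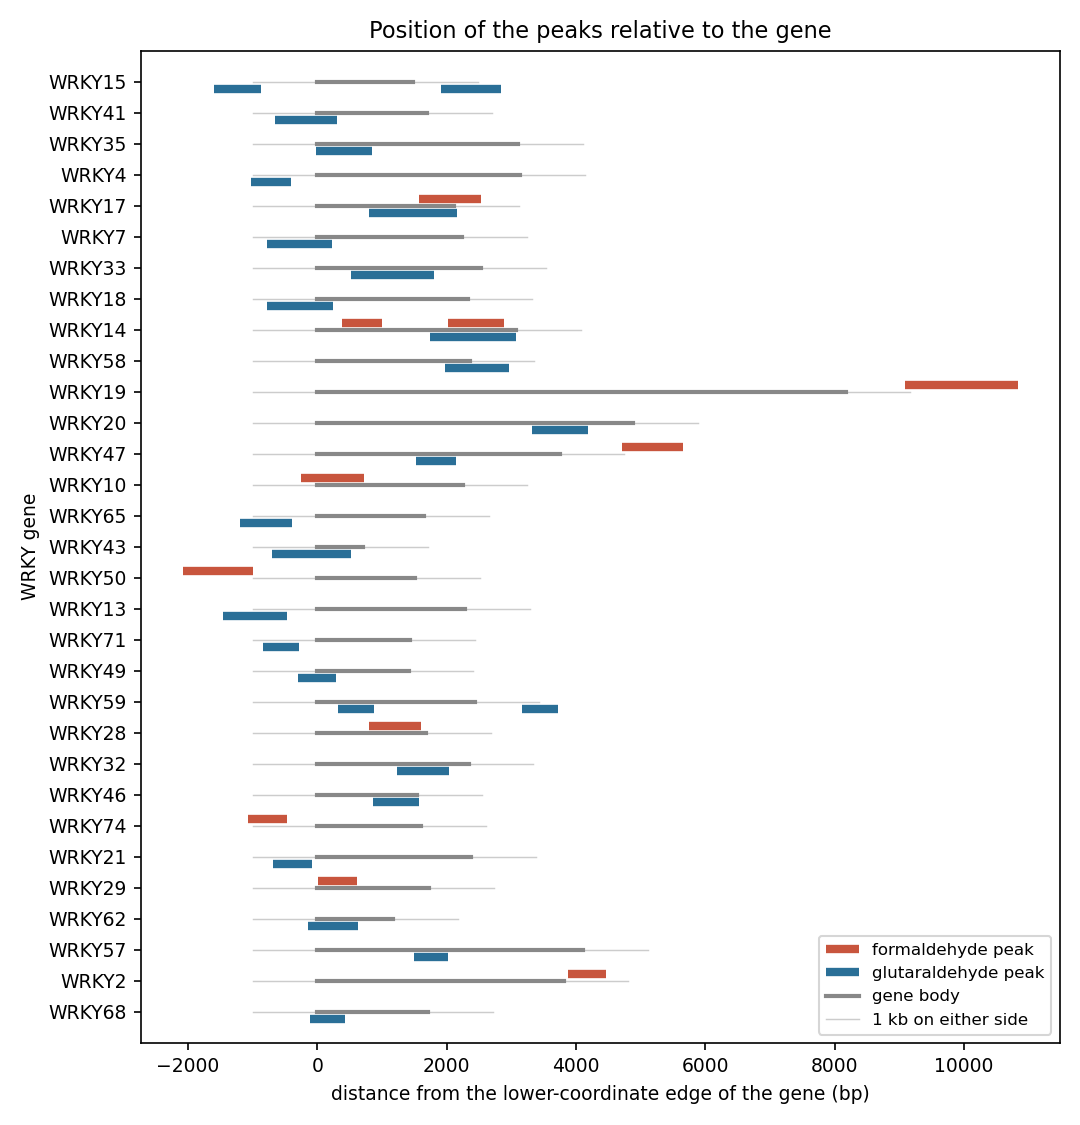
Each row is a WRKY gene with a peak, drawn from its lower-coordinate edge at 0 bp (horizontal axis in bp), with the gene body as a thick grey line and the 1 kb flanks as a thin one. Coloured bars above and below the line are formaldehyde and glutaraldehyde peaks. Bars of both colours meet in WRKY14 and WRKY17, and the formaldehyde bars outside a gene body lie near the far end of the flank at WRKY19, WRKY47 and WRKY50.

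The peaks were then placed relative to the gene. Of 26 glutaraldehyde peaks, 18 touched the body (69.2%, against 60.9% of the peaks counted for genes of similar length), and 12 of these crossed an edge of the gene, 8 at the lower and 4 at the higher coordinate. The gene table has no strand, so these edges were not assigned to promoters or gene ends. The other 8 lay in the flanks, none of them in the body of another protein-coding gene, where 63.2% of the flanking glutaraldehyde peaks of length-similar genes lay. Of 11 formaldehyde peaks, 6 touched the body (54.5%, against 66.2% for genes of similar length) and 5 lay in the flanks. All 5 flanking formaldehyde peaks lay in the body of a neighbouring protein-coding gene, namely AT4G01730 at WRKY47, BAT5 at WRKY19, AT5G26160 at WRKY50, WVD2 at WRKY74 and CSN6A at WRKY2. For length-similar genes this held for 76.2% of the flanking formaldehyde peaks. These counts are small, and no difference between the libraries in position was tested. No peak was counted for 2 members.

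The highest scoring WRKY peak lay beside WRKY15, a group IId gene, whose members bind calmodulin, on chromosome 2 from 9924886 to 9926372. It spanned 9926793 to 9927729, scored 180 and ranked 188 of 6306 glutaraldehyde peaks. The same peak lay within 1 kb of AT2G23321 and of the pseudogene AT2G23330 too. A second glutaraldehyde peak lay on the opposite side, spanning 9923297 to 9924011 and scoring 123, so that WRKY15 was flanked on both sides and had no peak in the body or with formaldehyde. WRKY59 also had a pair of glutaraldehyde peaks, in the body and 725 bp beyond it, with scores of 62.7 and 68.2.

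The next highest lay at WRKY41, which promotes expression of the dormancy regulator gene ABI3 in seeds. The glutaraldehyde peak spanned 6758442 to 6759403 on chromosome 4, with a score of 153 and rank 387. It covered the lower-coordinate edge of the gene and 306 bp of its body, and lay within 1 kb of 3xHMG-box1 too. At WRKY35, which the gene table also calls maternal effect embryo arrest 24, a peak from 14693671 to 14694545 on chromosome 2 scored 143 and covered 27.3% of the body. At WRKY4, a group I gene with a part in resistance to necrotrophic fungi, a peak scoring 129 stopped 406 bp short of the gene. That peak lay within 1 kb of ELF5A-1 too. None of WRKY41, WRKY35 and WRKY4 had a formaldehyde peak.

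The remaining glutaraldehyde peaks of 100 or more lay at WRKY7, WRKY33, WRKY18, WRKY58, WRKY20 and WRKY65, with those of WRKY14 and WRKY47 given above. WRKY33, a main regulator of camalexin synthesis and resistance to Botrytis, held a broad peak of 1286 bp inside its body, spanning 16108753 to 16110038 of chromosome 2 and scoring 121. The same peak touched AT2G08965, a long noncoding RNA entry, and lay within 1 kb of AT2G38480. WRKY7 and WRKY18 had peaks of similar shape, crossing the lower-coordinate edge with 236 bp and 246 bp in the body, and scores of 122.5 and 117. The WRKY7 peak also touched AT4G07250, a long noncoding RNA entry. At WRKY58 the peak, with a score of 108, also touched the neighbouring gene AT3G01085.

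Formaldehyde peaks of 100 or more lay at 4 WRKY genes. Those at WRKY17 and WRKY14 are described above. WRKY10, also known as MINISEED 3, a regulator of endosperm growth and seed size, had a peak spanning 20773802 to 20774774 of chromosome 1 that scored 106. It covered the lower-coordinate edge and 32.4% of the body, and no glutaraldehyde peak lay there. WRKY19, which joins WRKY domains to immune receptor and kinase domains, had a peak with a score of 108 that began 915 bp beyond the gene within BAT5.

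WRKY genes with a known part in seeds, ABA responses or light signalling were listed separately. Of 12 such genes, 10 are members by symbol, and TTG2 and ABO3 are not. Formaldehyde peaks lay at 2 of the 10 and glutaraldehyde peaks at 4, against 16.4% and 24.5% of genes of similar length, and no gene had both. The 4 were WRKY41, WRKY18, WRKY33 and WRKY43, and the 2 were WRKY10 and WRKY2. So few genes cannot be set apart from the background.

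WRKY43, which acts in ABA responses of seeds and is the shortest member at 714 bp, had a glutaraldehyde peak with a score of 98.2 over 72.7% of its body. That peak, from 18956510 to 18957730 on chromosome 2, also lay across KPHMT1 and a transfer RNA gene, so it cannot be assigned to WRKY43 alone. WRKY2, which mediates the arrest of early growth by ABA, had a formaldehyde peak 72 bp beyond the gene, in the body of CSN6A, with a score of 51.99, rank 4262 of 4557. WRKY40 and WRKY60, the partners of WRKY18 in group IIa and with it regulators of ABA and defence responses, had no peak. Nor had WRKY6, which acts in senescence and phosphate responses, or WRKY36, a repressor of the light signalling gene HY5.

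ABO3, the WRKY63 gene, in which mutants are oversensitive to ABA, was outside the symbol rule and held overlapping peaks. Its formaldehyde peak on chromosome 1 from 24848722 to 24849387 scored 55.1, rank 3858, and lay wholly within a glutaraldehyde peak from 24848688 to 24849704 that scored 105. Both were in the body, and both lay within 1 kb of AT1G66610 too. TTG2, which acts in trichomes and the seed coat, had no peak. RRS1, an immune receptor gene, had a glutaraldehyde peak in its body, scoring 52.8. Another, scoring 106, lay 986 bp from RRS1 in the body of RPS4. ZAP1 had a glutaraldehyde peak in the neighbouring SCL21. TTR1 had a formaldehyde peak in its flank, which lay in AT5G45030, CYTC6A and the long noncoding RNA entry AT5G06695.

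By structural group, peaks were found in each of the 7 groups. The background given for a group is the share, in 1 library, of genes of similar length to its members. Counts of genes with a peak in at least 1 library have another background. That share was 37.1% of the genes of similar length to all members and 38% of all protein-coding genes. Group IId had a peak at 5 of 7 genes, WRKY7, WRKY15, WRKY17, WRKY21 and WRKY74, with glutaraldehyde at 4 and formaldehyde at 2. These are 57.1% against a background of 24.6%, and 28.6% against 15%. The glutaraldehyde peak at WRKY21 ended 80 bp from the gene and scored 59.5, and the formaldehyde peak at WRKY74 lay in WVD2 and scored 59.5. Group I had one at 8 of 12, which were WRKY2, WRKY4, WRKY10, WRKY19, WRKY20, WRKY32, WRKY33 and WRKY58. Glutaraldehyde peaks lay at 41.7% of group I against 27.9%, and formaldehyde peaks at 25% against 19.6%. WRKY20 and WRKY32 held a glutaraldehyde peak inside the body, with scores of 108 and 63.4. Group IIe followed with 4 of 7, WRKY14, WRKY29, WRKY35 and WRKY65, at 42.9% against 25.3% with glutaraldehyde and 28.6% against 17.6% with formaldehyde. WRKY29 acts in defence signalling downstream of flagellin perception, and its formaldehyde peak in the body scored 55.99. Its relatives WRKY22 and WRKY27 had no peak.

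Group IIc, the largest with 18 genes, had a glutaraldehyde peak at 7 and a formaldehyde peak at 2, with none in common. The shares were 38.9% against 23.2% and 11.1% against 15.9%. WRKY13 and WRKY71, which act in stem development and in branching and flowering, had glutaraldehyde peaks in the flank with scores of 95.1 and 94.4. The WRKY13 peak also touched AT4G09865, a long noncoding RNA entry. WRKY49, WRKY57, WRKY59 and WRKY68 had peaks in the body with scores from 50.7 to 72.7, and WRKY43 is described above. Formaldehyde peaks lay in the body of WRKY28, an activator of salicylic acid synthesis, with a score of 66.1, and 990 bp from WRKY50, a salicylic acid response gene, with a score of 97.3.

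Groups III and IIb had the lowest shares of the 7 groups for a peak in at least 1 library, 3 of 12 and 1 of 8 genes. The share of the genes of similar length to all members was 37.1%. In group III, whose members include the senescence and salicylic acid response genes WRKY53, WRKY54 and WRKY70, 3 of 12 genes had a glutaraldehyde peak, 25% against a background of 24.5%. None had a formaldehyde peak, against 15.3%. The 3 genes were WRKY41, WRKY46 and WRKY62, the last 2 with scores of 62.4 and 55.7, while WRKY53, WRKY54 and WRKY70 had none. In group IIb WRKY47 was the only gene of 8 with a peak, 12.5% in each library against 26.5% with glutaraldehyde and 16.9% with formaldehyde. Differences between groups of this size were not tested, and the assignment to groups came from background knowledge.

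**Figure D5:**
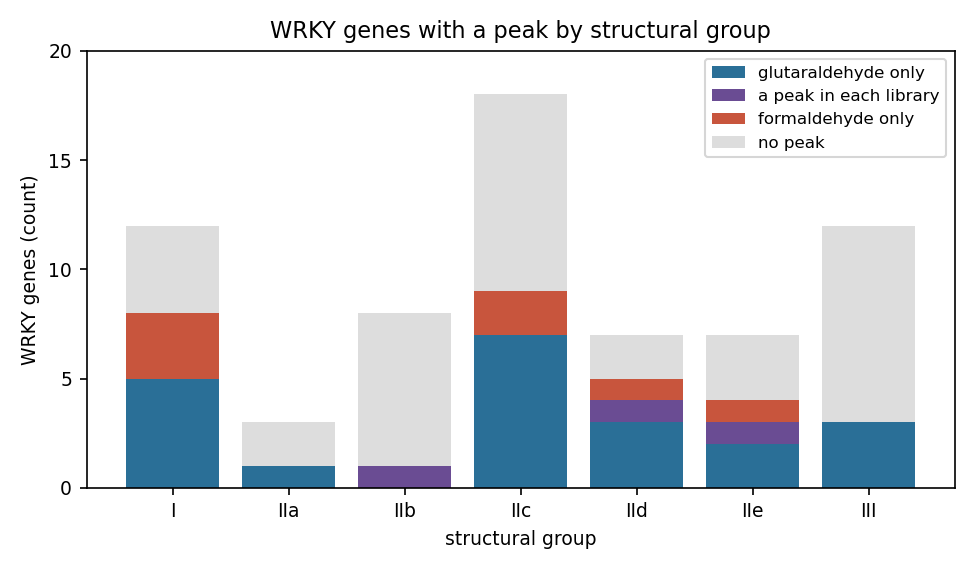
Stacked bars count the WRKY genes of each structural group (vertical axis) that had a glutaraldehyde peak, a formaldehyde peak, a peak in each library or none, in the body or within 1 kb. Groups I, IId and IIe have peaks at over 50% of their genes, and group IIc at 9 of 18. Groups IIa, IIb and III have them at 1 of 3, 1 of 8 and 3 of 12. A peak in at least 1 library lay at 37.1% of length-similar genes and 38% of all protein-coding genes. Differences between groups were not tested.

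Counts by chromosome are given beside the share of genes of similar length, which were drawn from all chromosomes. With glutaraldehyde, 8 of 15 WRKY genes on chromosome 2 had a peak, 53.3% against 24.3%, and 7 of 16 on chromosome 4, 43.8% against 25.9%. On chromosome 1 it was 5 of 15, 33.3% against 24.5%, and on chromosome 3 it was 2 of 6, 33.3% against 24.3%. On chromosome 5 it was 2 of 15, 13.3% against 25.6%. The WRKY share was thus below the background on chromosome 5 and above it on the other chromosomes.

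With formaldehyde, 4 of 16 WRKY genes on chromosome 4 had a peak, 25% against 18%, and 3 of 15 on chromosome 5, 20% against 15.4%. On chromosome 1 it was 2 of 15, 13.3% against 16.4%, on chromosome 2 it was 1 of 15, 6.67% against 16.9%, and on chromosome 3 none of 6, against 15.3%. Among all protein-coding genes of chromosomes 1 to 5, the formaldehyde shares were 15.9%, 18.3%, 15.9%, 17.7% and 17.5% in order. Each chromosome holds 6 to 16 members, and the differences between chromosomes were not tested.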

How the data were processed

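Per the labels, each ChIRP-seq assay used 0.3 g of Col-0 seeds, fixation with 1% formaldehyde or 1% glutaraldehyde took 20 min, and sequencing gave read pairs of 150 bp. The data are the authors' deposited peak lists of the probe libraries, with a score for each peak. Bowtie2 2.1.0, MACS 1.4.2 and TAIR10 are named in the submitters' processing notes. The sources used here do not say which control was used for calling, how multiply mapped reads were handled or how deep the libraries are, and each affects which peaks are called. Nothing says whether the replicates are separate seed batches.

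Gene positions came from RefSeq's TAIR10.1 table, whose nuclear coordinates are taken as those of TAIR10. It has no strand or exons, and no sequence was used here. Starts were converted to count from 1. Peaks were joined to genes in Python 3.11.15 with pandas 2.3.3 and NumPy 2.4.6, and intervals came from SciPy 1.17.1. The overlap code was checked against placed peaks and bedtools. Members and lists were chosen with earlier results of these data known. Genes named are those with peaks in both libraries or a score of 100 or more, then others by score up to 30, and the seed list. WRKY68, the gene with the lowest score, was added after its value was seen. WRKY11, WRKY22, WRKY27, WRKY53, WRKY54 and WRKY70, which had no peak, were named outside this rule. Alternatives were other flanks, score limits, midpoints, overlap rules, synonyms and length matching. The comparison with neighbouring genes, the shares of body and flanking peaks at length-similar genes, the other score limits than 100 and the leaving out of a library were added after the data had been seen.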

Additional observations from a re-analysis of the deposited data

How the results depend on the processing

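The glutaraldehyde count of 24 WRKY genes stayed within 1.5 times under other flanks, gene bodies, midpoints and added synonyms, and was 12 at a score of 100 or more and 7 with the 1000 highest scoring peaks. In each of these settings it lay above the share of length-similar genes. The formaldehyde count of 10 was 5 in gene bodies, 4 at a score of 100 or more and 2 with the 1000 highest scoring peaks. Peaks in both libraries (3 genes) and overlapping peaks (2 genes) each fell to 1 gene at a score of 100 or more and to 0 with the 1000 highest scoring peaks. Overlapping peaks were left at 1 gene by 50% reciprocal overlap and by midpoints within 200 bp. Leaving out 1 library changed the 31 genes with any peak to between 10 and 24, with 10 when the glutaraldehyde library was left out. The share of length-similar genes with a glutaraldehyde peak, 25.01%, was 22.99% with the 20 genes nearest in length and 26.6% with neighbouring genes. For both libraries, 4.51%, it was 3.21% and 5.37%, and for formaldehyde, 16.6%, it was 17.9% with neighbouring genes. No paired analysis was possible because the peak lists analysed belong to 1 group, so that no groups were compared, and the results come from no test. Depth is unknown, so a gene without a peak may have been below detection.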
